A study of Mus musculus and Homo sapiens with 22 samples.

Results

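The ATF4 and amino acid response genes were followed across 6 RNA-seq files of N2A cells, a mouse neuroblastoma line. The set was a fixed list of 39 mouse genes, all found among the 22667 genes of the files. The rule used no threshold on a measured value, but the list was chosen with earlier results of these data known. It comprised 6 transcription factors and cofactors, 8 feedback and stress effectors, 10 enzymes of serine, one-carbon, proline, asparagine and cysteine metabolism, 7 amino acid carriers and 8 tRNA synthetases. The study lowered proteins that act in splice site choice. Cells labelled shnSR100 were stably transduced with a lentiviral hairpin against the 3′ UTR of nSR100, the neuronal splicing factor encoded by Srrm4. Their controls, labelled shGFP, carried a hairpin against GFP, and both populations were kept under 2 µg/mL puromycin. Cells labelled siU2af65 were transfected with an siRNA pool against U2af65, the U2af2 product that binds the polypyrimidine tract, and those labelled siPtbp1 with a pool against Ptbp1, a polypyrimidine tract binding protein. Their controls, labelled siCtrl, received a non-targeting pool, and all siRNA cells were taken after 48 hours. All lines grew in medium supplemented with serum, pyruvate and non-essential amino acids.

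The siRNA libraries bore the letters siU2af65 a, siPtbp1 b, siCtrl a and siCtrl b, and the labels do not say what a letter stands for. Each hairpin group had 1 file that combined 2 sequencing runs, so it has no replicate. Reads in genes totalled between 60220620 and 77138004 per file. U2af2 fell to 18.4 RPKM in siU2af65 cells, against 113 and 105 RPKM in siCtrl a and b (adjusted p = 0.0047, edgeR), and Ptbp1 fell to 8.53 RPKM in siPtbp1 cells, against 158 and 139 RPKM in siCtrl a and b (adjusted p = 0.0024, edgeR). Srrm4 had 2.50 RPKM in shnSR100 cells and 11.6 RPKM in shGFP cells. RPKM are reads scaled by gene length and by the total of the file. All 11 neuroblastoma markers, among them Phox2a and Hand2, reached 1 RPKM in at least 1 file, and in every file apart from Dbh at 0.54 RPKM in shnSR100, while the summed level of 5 fibroblast, 5 immune, 4 endothelial, 5 glial and 4 epithelial markers stayed between 0.04 and 12.0 RPKM per list. The siU2af65 file had the highest immune and endothelial sums, at 3.81 and 9.38 RPKM, against 0.60 to 1.16 and 4.61 to 7.57 RPKM in the other files. Mostly 1 gene of each list carried that difference (Tyrobp and Pecam1), while Ptprc and Kdr were listed at 0 RPKM, rounded to 2 decimals, in all 6 files.

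ATF4 is the transcription factor at the centre of the integrated stress response. When a kinase such as GCN2, which senses uncharged tRNA, or PERK, which senses misfolded protein in the endoplasmic reticulum, phosphorylates eIF2α, general translation slows while the Atf4 mRNA is translated more. ATF4 then pairs with C/EBP proteins on response elements and activates genes that import and make amino acids, charge tRNAs and, through CHOP, TRIB3 and GADD34, limit or redirect the response. Its control is thus largely translational, which mRNA levels do not report.

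Response elements of this kind were looked for in promoter windows, since they are what the genes are known for sharing. The element searched was the C/EBP-ATF core TGATGNAA on either strand, in RefSeq windows (build GRCm38.p6) from 250 bases before to 50 bases after each start. Windows existed for 34 of the 39 genes, by symbol or synonym, and not for Eif4ebp1, Cth, Slc7a5, Wars and Nars. The core occurred in 13 of these 34 genes, or 38.2%, against 4.51% of the 27025 genes with a window (3.97% of 32851 windows). Because the genes are known for sharing such elements, this share is a description and not a test. The cyclic AMP element TGACGTCA, which no run of letters can match together with the core, occurred in 1 of the 34, or 2.94%, against 2.03% of genes. A match is a run of letters, not a measured binding site. The 30-base stretches below are given because they belong to genes that rose or came close to it after U2af65 knockdown, or to the most abundant enzyme gene and the carrier gene with a double match, which did not pass the test. They read 5′ to 3′ on the gene's strand, with the matched letters in capitals; TTNCATCA is the core read from the other strand.
Trib3, chr2:152344028-152344057, minus strand: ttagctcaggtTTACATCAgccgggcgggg
Chac1, chr2:119351038-119351067, plus strand: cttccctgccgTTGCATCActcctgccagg
Nupr1, chr7:126625562-126625591, minus strand: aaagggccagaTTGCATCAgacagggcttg
Atf3, chr1:191183425-191183454, minus strand: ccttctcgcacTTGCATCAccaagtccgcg
Asns, chr6:7693214-7693243, minus strand: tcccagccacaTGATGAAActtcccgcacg
Slc7a11, chr3:50443661-50443690, minus strand: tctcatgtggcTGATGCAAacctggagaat
Slc7a11, chr3:50443642-50443671, minus strand: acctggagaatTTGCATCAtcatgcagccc
Ppp1r15a, chr7:45526262-45526291, minus strand: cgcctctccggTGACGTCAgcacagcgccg

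The core letters began 110 bases before the start in both Nupr1 and Atf3, 193 bases before it in Chac1, 23 bases before it in Asns, and 14 bases after it in Trib3. In Slc7a11 they began 66 and 47 bases before the start, on opposite strands. The Ppp1r15a letters are the cyclic AMP element, 12 bases before the start. The other genes with the core were Aars, Fgf21, Gars, Pycr1, Slc1a4, Tars and Vldlr.

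Levels spanned a wide range in every library. In the controls Asns, which makes asparagine, was the most abundant on the RPKM scale, followed by Atf4 itself and by Eif4ebp1, which encodes the translation repressor 4E-BP1. Across the 6 files 37 genes had at least 1 RPKM in each. The receptor gene Vldlr had between 1 and 7 reads and the hormone gene Fgf21 between 14 and 62 reads per file, so neither was tested. Fgf21 read 1.03 RPKM in siU2af65 cells and 0.26 RPKM in siPtbp1 cells, against 0.39 and 0.62 RPKM in siCtrl a and b. The 37 tested genes each had at least 1 RPKM in both control libraries, so the filter on low values, a mean of 1 RPKM over the siRNA libraries, let none of them in through a knockdown alone.

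**Figure D1:**
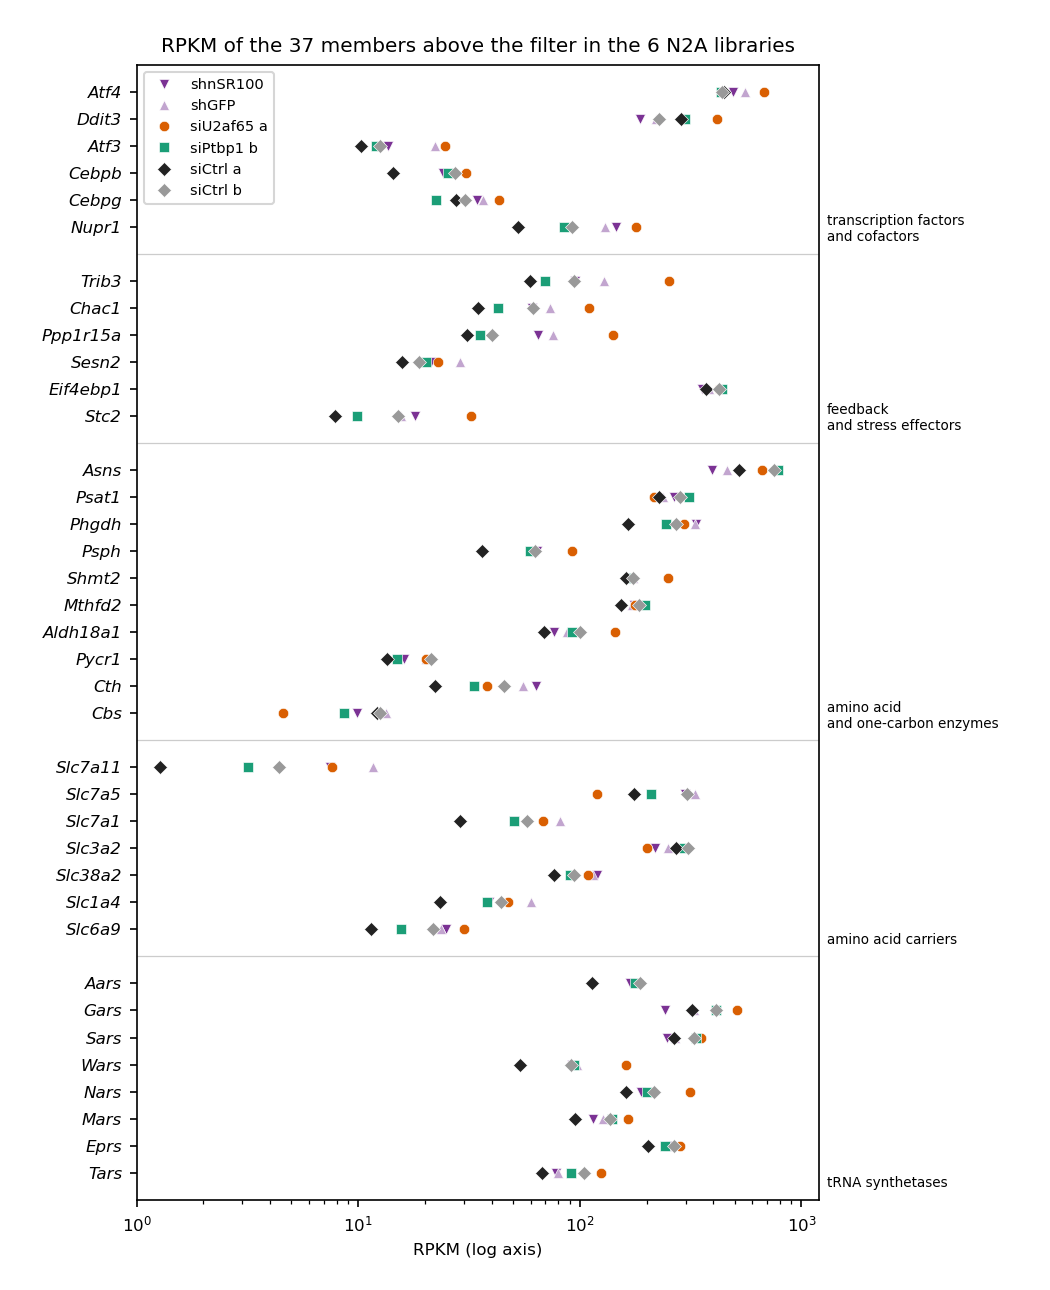
RPKM (log axis) of the 37 genes above the filter, grouped by role, with 1 marker per library and markers overlapping where values coincide. In these RPKM, scaled between libraries by the total of the file alone, the siU2af65 library was the highest of 6 in 21 genes, and the siCtrl a library the lowest in 26. Ranks can differ on the scale used for testing, as for Shmt2.

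After U2af65 knockdown 5 of the 37 tested genes rose and 1 fell (edgeR quasi-likelihood test on reads with TMM scaling, Benjamini-Hochberg adjusted p under 0.05 over 11237 genes). Of all genes tested, 1.82% rose and 3.42% fell, shares set beside a list that was not chosen blind to these data. Ppp1r15a, Trib3, Stc2, Nupr1 and Chac1 were the genes that rose, by 1.12 to 1.88 on the log2 scale, and 4 of them belong to the 6 tested feedback and stress effectors. Cbs fell to 0.34 of its control level. Differences were positive in 30 genes and negative in 7, with a median log2 fold change of 0.44, against 0.00 for all genes. At an unadjusted p under 0.05 there were 14 higher and 2 lower genes, against 10.5% higher and 13% lower over all genes.

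Those counts rest on a spread estimated from the siCtrl pair, with 1 residual degree of freedom, and nothing in the labels says that the pair came from separate cultures. They moved with the settings. Ppp1r15a, Trib3 and Cbs were called in every tested alternative but the one with shGFP, whereas Stc2, Nupr1 and Chac1 lost their calls under both stricter filters on low values, and all 6 genes lost theirs when shGFP was added to the controls (adjusted p between 0.39 and 0.50, edgeR). Against siCtrl a alone the median was 0.62 with 33 genes positive, and against siCtrl b alone 0.22 with 27 positive. The siU2af65 library lay above both controls in 27 genes and below both in 4, against 40.6% and 39.5% of all genes. Scaling by library totals in place of TMM turned the calls over all genes from 205 higher and 384 lower into 580 higher and 578 lower.

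The feedback and stress effectors had a median log2 fold change of 1.26 after U2af65 knockdown, with 5 positive and 1 negative. Ppp1r15a encodes GADD34, which brings phosphatase to eIF2α and so reverses the signal. It had 141 RPKM in siU2af65 cells and 35.4 RPKM in siPtbp1 cells, against 31.1 and 40.3 RPKM in siCtrl a and b, and 64.5 RPKM in shnSR100 cells against 75.7 RPKM in shGFP cells. The siU2af65 library was thus far above every other one, and the other siRNA libraries lay close together. The log2 fold change was 1.88 (SE 0.21, adjusted p = 0.0052, edgeR). In the RefSeq annotation Ppp1r15a overlaps Tulp2, whose own difference was -0.28 (adjusted p = 0.78, edgeR), and the strand rule of the counting is not given in the sources used here.

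Trib3, a pseudokinase gene induced by ATF4 and CHOP that restrains them in turn, had 253 RPKM in siU2af65 cells and 69.6 RPKM in siPtbp1 cells, against 59.9 and 93.9 RPKM in siCtrl a and b. The hairpin files held 94.7 RPKM for shnSR100 and 129 RPKM for shGFP. Again siU2af65 stood above all other libraries, but the siCtrl pair differed by a factor of 1.57. Trib3 rose by 1.63 on the log2 scale (SE 0.26, adjusted p = 0.0137, edgeR). Stc2, which encodes the secreted glycoprotein stanniocalcin-2, had 32.3 RPKM in siU2af65 cells and 9.93 RPKM in siPtbp1 cells, against 7.84 and 15.1 RPKM in siCtrl a and b. In shnSR100 cells it had 18.0 RPKM and in shGFP cells 15.6 RPKM. Each library other than siU2af65 lay at 18.0 RPKM or less, and siCtrl b was nearly as far above siCtrl a (1.93-fold) as siU2af65 was above siCtrl b. Its log2 fold change was 1.41 (SE 0.30, adjusted p = 0.0335, edgeR).

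Chac1, whose product degrades glutathione, had 111 RPKM in siU2af65 cells and 42.9 RPKM in siPtbp1 cells, against 34.7 and 61.4 RPKM in siCtrl a and b. It had 60.6 RPKM in shnSR100 cells and 73.7 RPKM in shGFP cells. The siU2af65 library was the highest, with siCtrl b 1.77-fold above siCtrl a. The log2 fold change of 1.12 (SE 0.27) passed narrowly, with an adjusted p of 0.0479 by edgeR. Sesn2, an inhibitor of mTORC1 signalling, differed by 0.31 (adjusted p = 0.41, edgeR), and Eif4ebp1 by -0.01 (adjusted p = 0.99, edgeR).

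**Figure D2:**
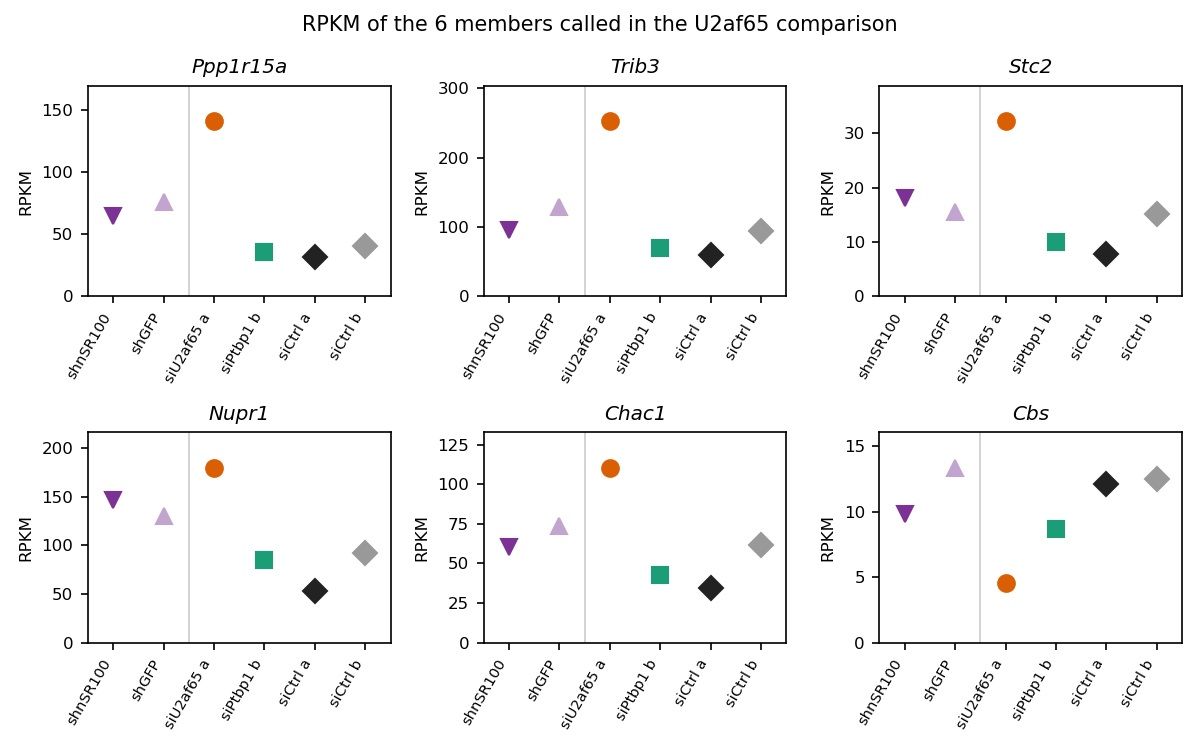
RPKM per library (vertical axes from 0) of the 6 genes that passed the test after U2af65 knockdown, each marker 1 library, with the hairpin pair left of the grey line. The siU2af65 marker is the highest in the first 5 panels and the lowest for Cbs.

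Among the transcription factors and cofactors all 6 differences were positive after U2af65 knockdown, with a median of 0.54, but 1 of the 6 passed the test. Nupr1, a small chromatin-binding stress protein gene, had 180 RPKM in siU2af65 cells and 84.5 RPKM in siPtbp1 cells, against 52.7 and 91.9 RPKM in siCtrl a and b. The shnSR100 file held 146 RPKM and the shGFP file 130 RPKM. Its siU2af65 value was the highest, although both hairpin files were also above all other siRNA libraries. Nupr1 rose by 1.23 on the log2 scale (SE 0.27, adjusted p = 0.0367, edgeR).

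Atf4 mRNA had 676 RPKM in siU2af65 cells and 435 RPKM in siPtbp1 cells, against 449 and 438 RPKM in siCtrl a and b. In the hairpin pair it had 489 RPKM in shnSR100 cells and 555 RPKM in shGFP cells. The control pair differed by a factor of 0.976 in RPKM, and after TMM scaling siCtrl b was -0.16 from siCtrl a on the log2 scale. The siU2af65 library lay above every other one. The log2 fold change of 0.51 (SE 0.30) did not pass the test (adjusted p = 0.34, edgeR). Ddit3, which encodes CHOP, had 415 RPKM in siU2af65 cells and 300 RPKM in siPtbp1 cells, against 286 and 229 RPKM in siCtrl a and b. It had 188 RPKM in shnSR100 cells and 222 RPKM in shGFP cells, so siU2af65 was again the highest. The difference was 0.58 (SE 0.25, adjusted p = 0.21, edgeR), while limma and edgeR with library totals called it higher. Ddit3 overlaps Mbd6 and the methionyl-tRNA synthetase gene in the RefSeq annotation, and reads of these genes may not be told apart. The same limit applies to Nupr1, which overlaps a long noncoding RNA gene, and to Wars, which overlaps Wdr25 and a small nuclear RNA gene. Cebpg, Psph, Shmt2, Aldh18a1, Slc6a9, Aars, Sars and Vldlr each overlap another annotated gene too, with the same limit.

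Atf3, a stress-induced repressor and activator gene, had 24.7 RPKM in siU2af65 cells and 12.0 RPKM in siPtbp1 cells, against 10.3 and 12.5 RPKM in siCtrl a and b. Its level was 13.6 RPKM in shnSR100 cells and 22.3 RPKM in shGFP cells, so shGFP came near siU2af65. The difference of 1.02 (SE 0.26) just missed the threshold with an adjusted p of 0.0517 by edgeR, and it passed under 6 of the alternatives, DESeq2 among them. The C/EBP genes Cebpb and Cebpg, partners of ATF4 on its elements, differed by 0.47 and 0.48 (adjusted p = 0.41 and 0.19, edgeR).

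The biosynthetic enzymes did not move as a block after U2af65 knockdown: 6 differences were positive, 4 negative, and the median was 0.11 (0.44 with 8 positive against siCtrl a alone, and -0.11 with 4 positive against siCtrl b alone). Cbs, which makes cystathionine from homocysteine and serine, was the one to pass, and it fell. It had 4.56 RPKM in siU2af65 cells and 8.67 RPKM in siPtbp1 cells, against 12.2 and 12.5 RPKM in siCtrl a and b. The shnSR100 file held 9.87 RPKM and the shGFP file 13.4 RPKM. The siU2af65 value was the lowest of all, and the siCtrl pair differed by a factor of 1.03. Its log2 fold change was -1.54 (SE 0.31, adjusted p = 0.0271, edgeR). Cth, the next enzyme of transsulfuration, differed by 0.09 (adjusted p = 0.90, edgeR), with siCtrl b 2.05-fold above siCtrl a.

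Asns, a textbook ATF4 target, had 661 RPKM in siU2af65 cells and 785 RPKM in siPtbp1 cells, against 521 and 749 RPKM in siCtrl a and b. The shnSR100 file held 395 RPKM and the shGFP file 460 RPKM. The siU2af65 value fell between the controls, with a log2 fold change of -0.04 (SE 0.36, adjusted p = 0.97, edgeR). In the serine pathway Phgdh, which catalyses its first step, differed by 0.35, the transaminase gene Psat1 by -0.34 and the phosphatase gene Psph by 0.80 (adjusted p = 0.49, 0.53 and 0.12, edgeR). Psat1 at 216 RPKM in siU2af65 cells was below siCtrl a and b, at 228 and 282 RPKM, while Psph at 91.9 RPKM was above siCtrl a and b, at 36.2 and 63.1 RPKM. Shmt2, the mitochondrial hydroxymethyltransferase gene, differed by 0.48, and Mthfd2, which carries the one-carbon unit onward, by -0.02 (adjusted p = 0.28 and 0.97, edgeR). For proline synthesis Aldh18a1 differed by 0.69 and Pycr1 by 0.13 (adjusted p = 0.16 and 0.82, edgeR). Among the alternatives limma called Psph, Aldh18a1 and Shmt2 higher. Library totals in edgeR called Psph and Aldh18a1 higher, and edgeR with no filter called Psph.

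None of the 7 amino acid carriers passed the test after U2af65 knockdown, with 2 higher and 1 lower at an unadjusted p under 0.05 (10.5% and 13% of all genes), although DESeq2 and limma called Slc7a5 lower and limma also called Slc7a11, Slc7a1 and Slc6a9 higher. Slc7a5 and Slc3a2 encode the light and heavy chains of the leucine carrier LAT1-4F2hc. Slc7a5 had 120 RPKM in siU2af65 cells and 209 RPKM in siPtbp1 cells, against 176 and 304 RPKM in siCtrl a and b. It had 297 RPKM in shnSR100 cells and 331 RPKM in shGFP cells. The siU2af65 value was the lowest of the 6 files, with a difference of -1.09 (SE 0.36, adjusted p = 0.11, edgeR). Slc3a2 was also lowest in siU2af65 cells, at 202 RPKM, against 272 and 307 RPKM in siCtrl a and b, a difference of -0.62 (SE 0.30, adjusted p = 0.24, edgeR). These were the members of the carrier group with negative differences.

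Slc7a11, the cystine carrier gene, had 7.61 RPKM in siU2af65 cells and 3.17 RPKM in siPtbp1 cells, against 1.27 and 4.41 RPKM in siCtrl a and b. The shnSR100 file held 7.50 RPKM and the shGFP file 11.7 RPKM. The siCtrl pair differed 3.47-fold, shnSR100 was level with siU2af65 and shGFP was the highest. Its log2 fold change of 1.35 had an SE of 0.49 (adjusted p = 0.14, edgeR). The arginine carrier gene Slc7a1, the neutral amino acid carrier genes Slc38a2 and Slc1a4 and the glycine carrier gene Slc6a9 differed by 0.26 to 0.77, with adjusted p between 0.19 and 0.59 by edgeR.

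All 8 tRNA synthetase genes had positive differences after U2af65 knockdown, between 0.15 and 1.08 with a median of 0.40, and none passed the test. The median was 0.59 against siCtrl a alone and 0.22 against siCtrl b alone, where 7 were positive. At an unadjusted p under 0.05 there were 2 higher, Wars and Nars, and 0 lower, against 10.5% and 13% of all genes. Wars, for tryptophan, had 162 RPKM in siU2af65 cells and 94.6 RPKM in siPtbp1 cells, against 53.5 and 91.2 RPKM in siCtrl a and b. It had 92.1 RPKM in shnSR100 cells and 97.6 RPKM in shGFP cells, so siU2af65 lay above all others and siCtrl a below all others. The log2 fold change was 1.08 (SE 0.27) with an adjusted p of 0.0512 by edgeR, and DESeq2 and limma called it. The asparaginyl gene Nars differed by 0.65 (adjusted p = 0.20, edgeR), while limma and edgeR with library totals called it higher. The siCtrl b value exceeded siCtrl a in all 8 of these genes, by a median of 0.36 on the log2 scale.

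After U2af65 knockdown the median log2 fold change was 0.44 over the 11 tested genes with the core, of which 3 rose, and 0.47 over the 21 without it, of which 2 rose. The difference between these groups was not tested.

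After Ptbp1 knockdown 0 of the 37 tested genes were called by edgeR, with 0 at an unadjusted p under 0.05 and 0 by DESeq2 or limma. Over all genes 0.0% rose and 0.0267% fell, so a count of 0 is at the background. The differences ran from -0.56 (Cbs) to 0.35 (Wars), 24 positive and 13 negative, with a median of 0.08. The median was 0.24 against siCtrl a alone and -0.10 against siCtrl b alone, so its sign depended on the control library, and it was -0.07 with shGFP added to the controls. The siPtbp1 library lay above both controls in 9 genes and below both in 4, against 34.8% and 28.9% of all genes. Cebpg and Cbs were among those below both: Cebpg had 22.5 RPKM in siPtbp1 cells against 27.5 and 30.2 RPKM in siCtrl a and b, a log2 fold change of -0.41 (SE 0.21, adjusted p = 0.9994, edgeR). All 8 synthetase genes had positive differences here too, between 0.00 and 0.35, but 4 of them were positive against siCtrl b alone, and Eprs turned negative under other scaling. With SEs between 0.21 and 0.51 on the log2 scale, differences of the size seen did not pass the test. Those SEs combine the gene's own siCtrl pair with the spread of that pair over all genes. In Cebpg and Cbs the pair itself lay close, with siCtrl b at 0.01 and -0.08 from siCtrl a on the log2 scale. Over the 37 genes that gap ran from -0.44 to 1.63.

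**Figure D3:**
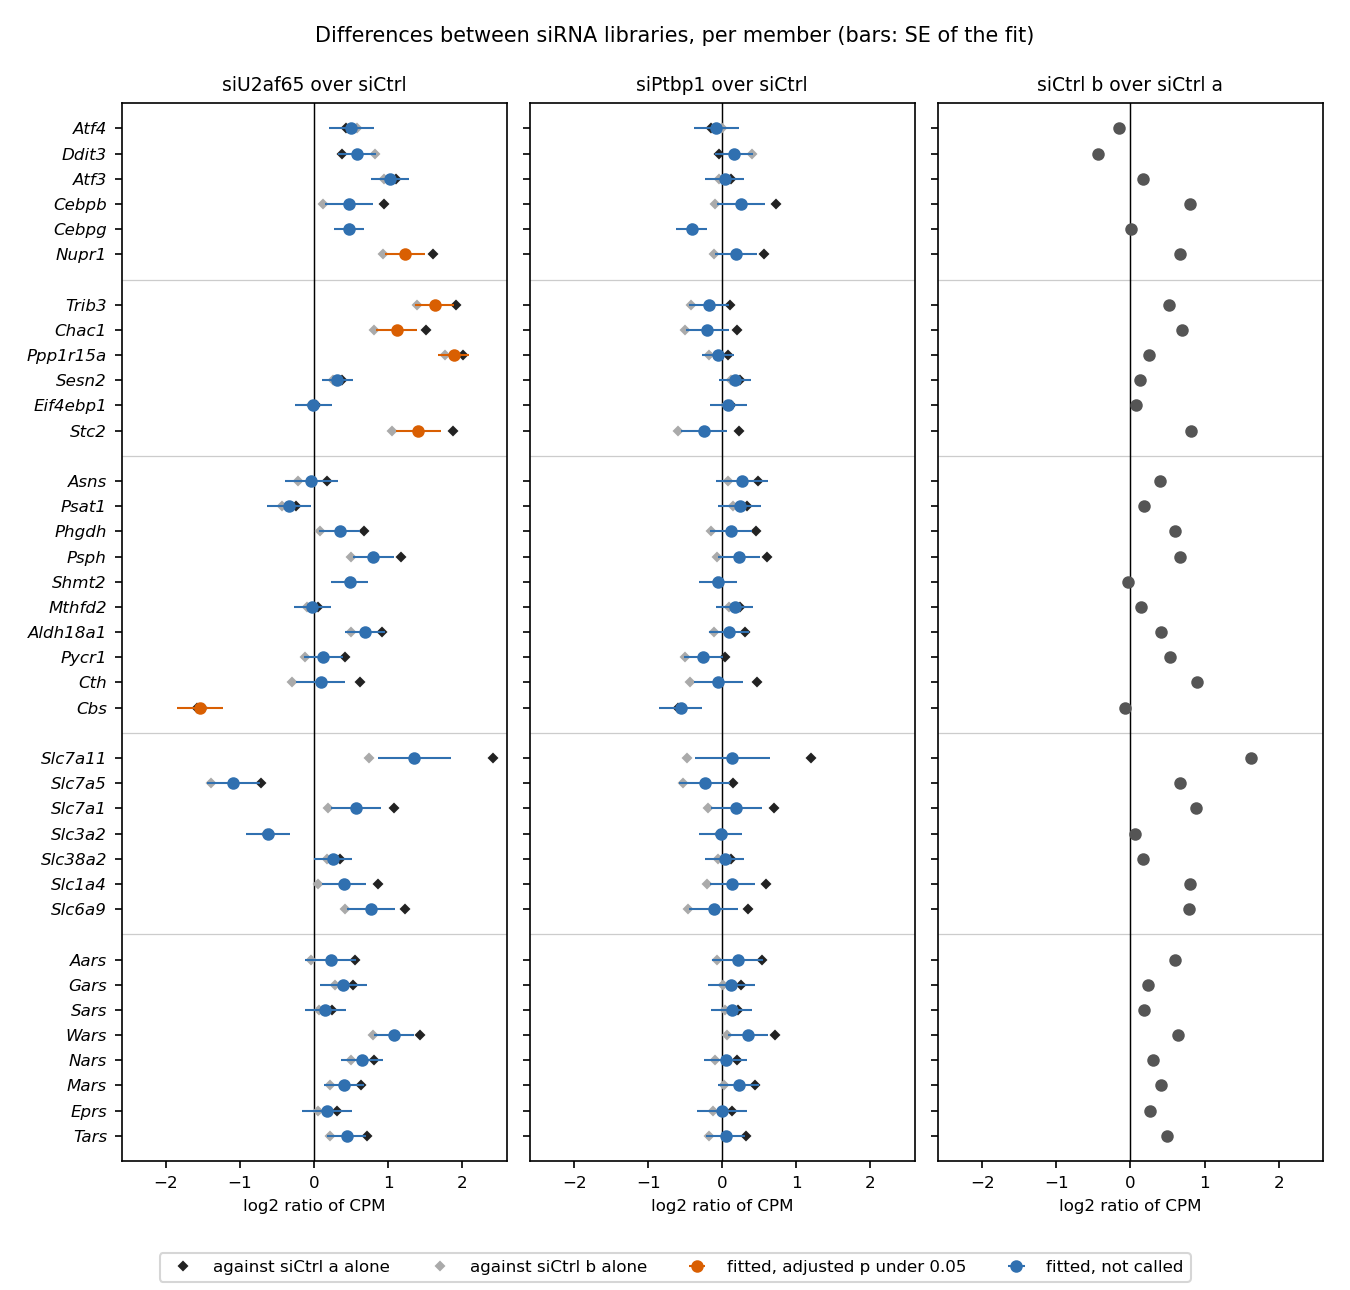
Log2 ratios of TMM-scaled CPM (reads scaled to library size) for the 37 genes, with large circles for the fitted difference and its SE in the first 2 panels and small diamonds for each control alone. The third panel gives siCtrl b over siCtrl a, positive in 33 genes.

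Set directly against each other, the knockdown libraries differed in 3 of the 37 genes, all higher in siU2af65 than in siPtbp1 cells. Over all genes 1.09% were higher and 2.54% lower. Ppp1r15a was higher by 1.94 (SE 0.26, adjusted p = 0.0103, edgeR), Trib3 by 1.81 (SE 0.32, adjusted p = 0.0213, edgeR) and Stc2 by 1.65 (SE 0.37, adjusted p = 0.0443, edgeR). Chac1, at 1.32, had an adjusted p of 0.060, Nupr1, at 1.04, one of 0.11, and Cbs, at -0.98, one of 0.13 by edgeR, so for these the knockdowns were not shown to differ. Each arm is 1 library, the letters differ, and the spread again comes from the siCtrl pair alone. Differences were positive in 30 genes and the median was 0.38. Under the filter at 5 RPKM Trib3 and Stc2 lost their calls (adjusted p = 0.053 and 0.082, edgeR), and Stc2 also with at least 1 RPKM required in both controls (adjusted p = 0.062, edgeR). These values share the siU2af65 library with the comparison against siCtrl.

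How far the controls lay apart bears on all of these values. The siCtrl b library exceeded siCtrl a in 33 of the 37 genes, by a median of 0.41 on the log2 scale, against 0.04 for all 11237 genes. The gap was widest in the carriers, with a median of 0.79 and all 7 higher in siCtrl b, and it was 0.41 in the enzymes, 0.39 in the effectors and 0.09 in the transcription factors. Ddit3 and Atf4 ran the other way, at -0.44 and -0.16. With 1 library of each letter this gap has no replicate. A list of 16 glycolysis and hypoxia genes, added after the values were seen, moved the other way between the controls: all 14 tested were lower in siCtrl b than in siCtrl a, by a median of -1.47. Their summed level was 6612 RPKM in siU2af65 cells and 3588 RPKM in siPtbp1 cells, against 10250 and 4153 RPKM in siCtrl a and b. It was 2552 RPKM in shnSR100 cells and 2905 RPKM in shGFP cells. What part this difference between the control libraries had in the results above was not tested.

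Other genes of the pathway were taken from lists chosen with earlier results of these data known. Of 16 eIF2α kinases, eIF2 and eIF2B subunits and their regulators 1 rose and 0 fell after U2af65 knockdown, against 1.82% and 3.42% of all genes, with 8 differences positive, 8 negative and a median of 0.01 (0.09 against siCtrl a alone and 0.02 against siCtrl b alone). That gene was Impact, whose product restrains GCN2 by binding its activator GCN1. It had 133 RPKM in siU2af65 cells and 61.4 RPKM in siPtbp1 cells, against 54.5 and 55.1 RPKM in siCtrl a and b, a log2 fold change of 1.18 (SE 0.22, adjusted p = 0.0229, edgeR). The control pair was nearly equal, and the hairpin files held 59.4 RPKM for shnSR100 and 54.6 RPKM for shGFP.

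Of 28 further ATF4 and CHOP target genes 1 rose and 0 fell after U2af65 knockdown (1.82% and 3.42% of all genes), with 18 positive, 10 negative and a median of 0.33. The median was 0.40 against siCtrl a alone and 0.33 against siCtrl b alone. At an unadjusted p under 0.05, 8 were higher and 0 lower, against 10.5% and 13% of all genes. The gene that rose was Cdsn, known chiefly as the gene of an adhesion protein of cornified skin. Cdsn had 18.6 RPKM in siU2af65 cells and 2.45 RPKM in siPtbp1 cells, against 1.33 and 3.91 RPKM in siCtrl a and b, a log2 fold change of 2.75 (SE 0.49, adjusted p = 0.0184, edgeR). After Ptbp1 knockdown 24 of these 28 genes had negative differences, with a median of -0.15, and none passed; 4 were lower at an unadjusted p under 0.05, against 2.74% of all genes. The sign of that median depended on the control, at 0.08 with 16 positive against siCtrl a alone and -0.31 with 1 positive against siCtrl b alone.

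Of 16 tested serine, glycine and one-carbon genes outside the set 3 rose and 0 fell after U2af65 knockdown (1.82% and 3.42% of all genes), among them Mthfd2l and Tyms. Mthfd2l, a mitochondrial relative of Mthfd2, had 9.64 RPKM in siU2af65 cells against 2.12 and 1.93 RPKM in siCtrl a and b (log2 fold change 2.15, adjusted p = 0.0186, edgeR). Tyms, which makes thymidylate, had 23.2 RPKM in siU2af65 cells against 9.43 and 12.2 RPKM in siCtrl a and b (log2 fold change 1.00, adjusted p = 0.0433, edgeR). It had 21.5 RPKM in shnSR100 cells and 9.26 RPKM in shGFP cells, a difference of 1.13 on the log2(RPKM + 1) scale, so shnSR100 lay near siU2af65. The median of this list was 0.09 after U2af65 knockdown, at 0.22 against siCtrl a alone and -0.02 against siCtrl b alone.

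Synthetase genes outside the set included 2 that fell, where 3.42% of all genes did. Among 12 other cytosolic ones Dars, for aspartate, had 42.3 RPKM in siU2af65 cells and 77.4 RPKM in siPtbp1 cells, against 95.3 and 80.0 RPKM in siCtrl a and b. Qars, for glutamine, had 24.7 RPKM in siU2af65 cells and 53.6 RPKM in siPtbp1 cells, against 48.5 and 48.4 RPKM in siCtrl a and b. In both genes siU2af65 was the lowest of the 6 files, with log2 fold changes of -1.16 and -1.08 (adjusted p = 0.0334 and 0.0290, edgeR). The list had 7 positive and 5 negative differences and a median of 0.02 (0.13 against siCtrl a alone and -0.04 against siCtrl b alone). None of 17 mitochondrial synthetase genes passed, with 2 higher and 1 lower at an unadjusted p under 0.05, against 10.5% and 13% of all genes. Their median was 0.25, at 0.48 against siCtrl a alone and 0.14 against siCtrl b alone.

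Chaperones and other endoplasmic reticulum stress genes fell where they passed the test. Of 16 such genes outside the set 2 fell and 0 rose after U2af65 knockdown, against 3.42% and 1.82% of all genes, with 11 negative differences and a median of -0.44 (-0.29 against siCtrl a alone and -0.57 against siCtrl b alone). At an unadjusted p under 0.05, 6 were lower and 2 higher, against 13% and 10.5% of all genes. After Ptbp1 knockdown 13 of the 16 differences were positive, with a median of 0.30. That median was 0.43 against siCtrl a alone and 0.18 against siCtrl b alone. Set against siPtbp1 cells, 2 of the 16 genes were lower in siU2af65 cells and 0 higher (2.54% and 1.09% of all genes). Sdf2l1, a component of the chaperone complex, had 27.0 RPKM in siU2af65 cells and 81.8 RPKM in siPtbp1 cells, against 53.8 and 74.5 RPKM in siCtrl a and b (log2 fold change -1.34, adjusted p = 0.0216, edgeR). Pdia4, a disulfide isomerase gene, had 51.6 RPKM in siU2af65 cells and 139 RPKM in siPtbp1 cells, against 100.0 and 122 RPKM in siCtrl a and b (log2 fold change -1.20, adjusted p = 0.0295, edgeR). In both genes the siU2af65 value lay below every other file. In none of these lists was a gene called after Ptbp1 knockdown.

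In the hairpin pair 0 of the 37 genes reached a 2-fold difference on the log2(RPKM + 1) scale in either direction, against 0.303% of 11877 genes higher and 0.615% lower. There is 1 file per group, so no test was made, and the intervals given cover counting error only. Differences were negative in 27 genes and positive in 10, with a median of -0.13, against 0.03 for all genes. Slc7a1 had 50.3 RPKM in shnSR100 cells and 81.7 RPKM in shGFP cells, a ratio of 0.615 (exact binomial 95% interval 0.606 to 0.625). Atf3 had 13.6 RPKM in shnSR100 cells and 22.3 RPKM in shGFP cells, a ratio of 0.612 (0.577 to 0.649). Slc7a11 and Slc1a4 followed with ratios of 0.643 (0.619 to 0.668) and 0.650 (0.634 to 0.666). Carriers thus held 3 of the 4 lowest ratios, whereas Slc38a2 and Slc6a9 had ratios of 1.05 and 1.06.

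Trib3, Sesn2, Gars and Cbs had ratios between 0.733 and 0.740 in the hairpin pair. Atf4 itself had a ratio of 0.882 (0.872 to 0.892) and Ddit3 one of 0.847 (0.825 to 0.869). At the other end, Stc2 stood at 1.16 (1.11 to 1.21), Cth at 1.148 (1.11 to 1.19), Psat1 at 1.13 and Nupr1 at 1.13. The enzymes were evenly split, 5 above and 5 below, and the tRNA synthetases had 7 of 8 lower. For the same genes the ratio of siCtrl b over siCtrl a in RPKM ran between 0.798 for Ddit3 and 3.47 for Slc7a11.

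**Figure D4:**
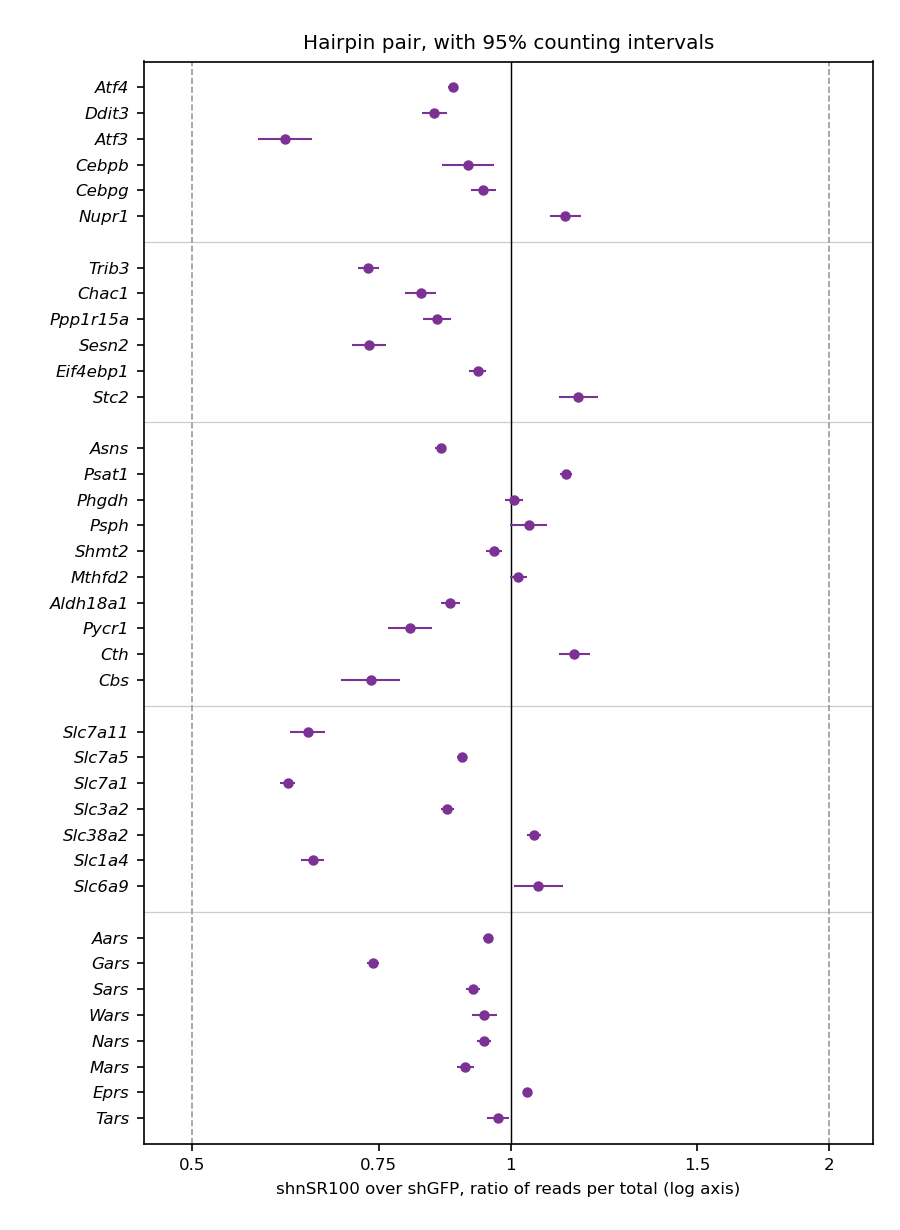
Ratio of reads per total in shnSR100 over shGFP (log axis) for the 37 genes, with exact binomial 95% intervals for counting error only and dashed lines at 2-fold in each direction. All points lie between the dashed lines, and 27 lie below 1.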

How the data were processed

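Per the labels' protocols, total RNA was made into Illumina mRNA-Seq libraries. Each deposited file lists Ensembl genes with the authors' read count and RPKM, RPKM being absent for 1114 genes. Per the submitters' processing notes, Bowtie, bedtools 2.17.0 and the build mm9 were used at steps not stated; counting rule, strand and annotation are not given in the sources used here. The human 293T files and the crosslinking libraries were not used here. Symbols matched 20759 of 22667 identifiers.

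edgeR 4.0.16 (R 4.3.3) was run on the counts of the 4 siRNA libraries together, without covariates, with TMM scaling. It covered the 11237 genes whose mean reached 1 RPKM, and p-values were adjusted by Benjamini-Hochberg at 0.05. The common dispersion was 0.0375 and the prior degrees of freedom 8.65. SE was taken as log2 fold change over root F. CPM are TMM-scaled, while printed RPKM are as deposited. The hairpin files were compared as log2(RPKM + 1), a scale that understates low genes, where either file reached 1 RPKM. Alternatives used DESeq2 1.42.0, limma 3.58.1, other scalings, filters and controls. The fit was tested on simulated data. P-values reflect library-to-library spread only, which may be technical.

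Genes named were all members, and list genes called in a siRNA comparison, at most 5 per list; 1 called list gene is not reported here. The members and lists were chosen with earlier results of these data known. Promoter windows are from RefSeq, build GRCm38.p6, whose gene names also gave the overlaps; intervals are exact binomial.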

Additional observations from a re-analysis of the deposited data

How the results depend on the processing

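Counts of called genes depended on the settings. After U2af65 knockdown the number that rose was 5. It was 7 with DESeq2, 7 with the DESeq2 size factors in edgeR and 12 with library totals. It was 9 of 39 genes with no filter and 2 of 36 with a mean of at least 5 RPKM. It was 2 with at least 1 RPKM in both controls, 0 with shGFP added and 15 with limma at either pseudocount. The number that fell was 1, and it was 2 with library totals, no filter, DESeq2 and limma, and 0 with shGFP added. Between the knockdowns 3 were higher, against 8 with library totals, 6 with no filter, 1 at 5 RPKM and 9 with limma, and 0 were lower, against 1 with no filter and with limma. Of all genes, 122 were higher and 285 lower between the knockdowns. These calls were 435 and 545 with library totals, and 525 and 754 of 17622 genes with no filter. They were 28 and 86 of 8923 genes at 5 RPKM, and 462 and 604 with limma at pseudocount 1. Over all genes the U2af65 calls were 205 higher and 384 lower. They were 339 and 706 with DESeq2, 294 and 487 with its size factors in edgeR, and 580 and 578 with library totals. They were 688 and 961 with no filter, 74 and 183 at 5 RPKM, and 99 and 260 with 1 RPKM in both controls. They were 0 and 0 with shGFP added, and 655 and 630 with limma at pseudocount 1. The median of all genes moved to 0.095 with library totals, 0.096 with limma at pseudocount 1 and 0.11 with limma at pseudocount 0.1. That of the members was then 0.53, 0.56 and 0.56. None of these settings used TMM scaling. The causes were not tested, except that shGFP adds cells of another treatment.

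Where both controls were kept, the signs that turned were of genes that were not called, most with values near 0. After U2af65 knockdown, with library totals Eif4ebp1 was 0.0905, Asns 0.0572 and Mthfd2 0.0757. Eif4ebp1 was 0.0070 at 5 RPKM and 0.0038 with 1 RPKM in both controls. With shGFP added Eif4ebp1 was 0.0428, Asns 0.126 and Cth -0.142. With limma at pseudocounts 1 and 0.1 Eif4ebp1 was 0.0924 and 0.0926, Asns 0.0796 and 0.0798, and Mthfd2 0.0804 and 0.0809. After Ptbp1 knockdown Eprs was -0.0096 with DESeq2 and with its size factors, -0.0125 with no filter and -0.0219 at 5 RPKM. Slc3a2 was 0.0291 with library totals, 0.0318 and 0.0319 with limma, and 0.0718 with shGFP added. Cth was 0.0655 and 0.0699 with limma. With shGFP added Atf3 was -0.31, Nupr1 -0.10, Sesn2 -0.0669, Phgdh -0.0670, Slc7a11 -0.82, Slc7a1 -0.14, Slc38a2 -0.0817 and Slc1a4 -0.15. Between the knockdowns with no filter Aars was -0.0279 and Sars -0.0184.

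Leaving out siCtrl a turned the sign of 3 genes after U2af65 knockdown, Cth reaching -0.30, and of 14 after Ptbp1 knockdown, Slc7a11 reaching -0.47. Leaving out siCtrl b turned 3, Asns reaching 0.18, and 10, Cth reaching 0.47; none of these genes was called. Leaving out a control left no residual degree of freedom, so those fits give values without a test. The median of the members after U2af65 knockdown then lay between 0.22 and 0.62, and after Ptbp1 knockdown between -0.10 and 0.24. No paired analysis was possible because each hairpin file combines its numbered runs and a block on the siRNA letters leaves no residual degree of freedom. Each knockdown had 1 library.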
